A study of Mus musculus with 12 samples.

Results

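The cells described here were mesothelial cells of epididymal white adipose tissue (eWAT), the gonadal fat pad of male mice, found in single-cell RNA sequencing of the stromal vascular fraction, which is what is left of digested fat once the floating adipocytes are removed. A cell was chosen by its own unique molecular identifier (UMI) counts. It had a sum of at least 4 UMIs over Msln, Upk3b and Krt19, at least 2 of these 3 genes found, and no UMI of Ptprc, the pan-leukocyte gene, or of Pecam1, an endothelial gene. Of 57613 eWAT cells kept, 1087 met the rule, and of 126095 cells kept in the whole series the 57613 came from 6 of 12 libraries, the others being from inguinal fat (iWAT). All mice were male and 12 weeks old. WT-Veh mice were C57BL/6J given vehicle, methylcellulose in culture medium. ob/ob-Veh mice were Lepob/Lepob, which make no working leptin and become obese, given the same vehicle. ob/ob-Rosi mice were Lepob/Lepob given rosiglitazone (Rosi), an agonist of the nuclear receptor PPARγ, at 30 mg/kg. All were gavaged morning and evening for 3 days, and 300 mg of fat taken from several places in the pad was digested with collagenase. Each eWAT library came from 1 mouse, with 2 libraries per group, so every spread below is that between 2 mice.

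Mesothelium is the single layer of flat cells that covers the peritoneal, pleural and pericardial surfaces, including visceral fat pads such as eWAT. Its cells have both epithelial features, such as keratins, tight junctions and microvilli, and mesenchymal ones, such as vimentin. They secrete a lubricating, protease-inhibitor-rich fluid and complement proteins, and they can lose their junctions and become fibroblast-like after injury. WT1, a zinc-finger transcription factor, is a standard marker of mesothelium, and it is also expressed by stromal progenitors of visceral fat. Inguinal fat lies under the skin and has no mesothelial cover.

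The eWAT libraries held between 40933057 and 92475986 UMIs. Members had a median of 6450 UMIs and 2680 genes per cell, with library medians from 3050 UMIs in WT-Veh 1 to 7983.5 in ob/ob-Rosi 2. No member barcode was shared between libraries, and pairs of libraries shared 12 to 44 kept barcodes. Lep, the mutated gene, could not check the genotype labels by the mutation itself. The mutation leaves the transcript in place, and counting at the 3′ end does not read it. WT-Veh-labelled libraries held 0.305 and 0.793 Lep UMIs per Adipoq UMI, ob/ob-Veh-labelled ones held 0.0359 and 0.103, and ob/ob-Rosi-labelled ones held 2.59 and 3.61. The ratio was lowest in ob/ob-Veh and highest in ob/ob-Rosi, and whether these levels bear on the labels was not tested. Group names here are those of the labels.

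The sequences below show the promoters of genes that the results turn on and that carried a motif searched for, the cores bound by TEAD factors (CATTCC) or by heat shock factor (GAANNTTC). Each is 250 bases ending at the base before the RefSeq start (GRCm38.p6), read 5′ to 3′ along the gene, and the capitals mark the motif, which for Lrrn4 reads GGAATG because it lies on the opposite strand. Upk3b, a urothelial membrane plaque protein used in the rule, and Lrrn4, a leucine-rich repeat membrane protein left out of the rule, carried the first motif. The promoters of the other markers, Msln, Krt19 and Wt1, were not searched here. The window of Upk3b is chr5:136038246-136038495, plus strand, and that of Lrrn4 is chr2:132880863-132881112, minus strand. Hspa1b and Hspb1, a 70-kDa-class and a small heat shock protein, carried the second, in the windows chr17:34959239-34959488, minus strand, and chr5:135887669-135887918, plus strand.
Upk3b: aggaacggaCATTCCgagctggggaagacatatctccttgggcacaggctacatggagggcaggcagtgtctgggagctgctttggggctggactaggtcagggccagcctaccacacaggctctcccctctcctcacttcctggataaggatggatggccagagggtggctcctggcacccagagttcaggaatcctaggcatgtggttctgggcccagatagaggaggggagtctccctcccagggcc
Lrrn4: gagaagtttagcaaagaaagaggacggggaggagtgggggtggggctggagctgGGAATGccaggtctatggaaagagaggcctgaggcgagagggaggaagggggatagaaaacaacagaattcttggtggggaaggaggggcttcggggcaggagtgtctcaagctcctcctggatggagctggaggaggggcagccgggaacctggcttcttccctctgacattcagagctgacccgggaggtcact
Hspa1b: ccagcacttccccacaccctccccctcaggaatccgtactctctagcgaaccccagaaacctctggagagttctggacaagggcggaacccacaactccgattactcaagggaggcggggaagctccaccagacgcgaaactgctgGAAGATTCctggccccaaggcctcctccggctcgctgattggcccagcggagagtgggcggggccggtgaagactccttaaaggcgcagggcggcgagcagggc
Hspb1: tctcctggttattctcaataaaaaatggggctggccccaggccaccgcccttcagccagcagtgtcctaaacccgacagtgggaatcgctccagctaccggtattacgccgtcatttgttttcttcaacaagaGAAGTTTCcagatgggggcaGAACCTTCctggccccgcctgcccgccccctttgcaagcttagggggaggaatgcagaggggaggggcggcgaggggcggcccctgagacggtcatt
The motif starts 241 bases before the start of Upk3b and 196 before that of Lrrn4. It starts 104 bases before the start of Hspa1b, and Hspb1 carries 2 copies at 117 and 97 bases. Hspb1 also holds CATTCC on the opposite strand, left in lower case. Searched on both strands, CATTCC stood in 12.6% of all 32851 RefSeq mouse promoters and in 4 of the 21 promoters (19.0%) found for 18 genes of the mesothelial identity list, those of Cldn15, Gpm6a, Krt14 and Lrrn4. Of the 31 promoters of immediate early and heat shock genes 3 (9.68%) held it. GAANNTTC stood in 6.69% of all promoters and in 5 of the 31 (16.1%) found for 25 immediate early and heat shock genes, those of Fosl2, Hspa1a, Hspa1b, Hspb1 and Jun, and in none of the 21 of the identity list. A match is a description of the letters, not of a bound site.

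Msln, Upk3b and Krt19 chose the cells, so their levels in members are given without a test. All 3 were found in 881 members (81.0%), and the median member had 21 UMIs of them, from 4 to 104. At the threshold, 43 members had a sum of exactly 4, and of these 69.8% had a Wt1 UMI and 55.8% an Lrrn4 UMI. Just outside, 33 cells had a sum of 3 with at least 2 of the genes, and 45.5% of them had Wt1 and 42.4% Lrrn4. A further 35 cells had 4 or more UMIs in 1 gene alone. In the mouse annotation (GRCm38), Msln, which encodes the surface glycoprotein mesothelin, lies at chr17:25748613-25754378 and Krt19, an epithelial keratin, at chr11:100140810-100148665.

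The markers that the rule did not use were found in most members. Wt1 was found in 81.6% of members, Lrrn4 in 89.1%, Upk1b, another urothelial plaque gene, in 89.1%, the membrane mucin Muc16 in 79.3%, and the membrane glycoprotein Gpm6a in 96.3%. With each cell thinned to 700 UMIs these shares were 22.5%, 34.3%, 31.6%, 23.3% and 53.4%. Lrrn4 had a UMI in 0.334% of stromal cells, taken as cells with Pdgfra and collagen or decorin UMIs and none of the rule's genes, and in 0.451% of macrophages, far below its share in members. Wt1 set members apart from macrophages, where 1.80% had a UMI, more than from stromal cells, where 30.4% had one before thinning and 6.45% after. Median depths in members, from 3050 to 7983.5 UMIs, overlapped those of macrophages, from 3261.5 to 7284.5. The label therefore held on these markers, while Calb2, the calretinin gene used to mark human mesothelium, had no UMI in members of any library. Levels in CPM, the UMIs of a gene scaled by the UMI total of the cells they were counted in to the usual per-million unit, taken over the 6 libraries put 722 genes at 200 or more in members, and 45 of these were at least 8-fold above stromal cells, macrophages and endothelial cells alike. They included Slpi, a secreted protease inhibitor, at 7513 CPM, the complement protease gene C2 at 1080 CPM, Lgals7, a galectin of epithelia, at 904 CPM, Fgf1, a fibroblast growth factor, at 1242 CPM, Krt8 at 320 CPM, and Rspo1, a secreted amplifier of WNT signals, at 592 CPM. This comparison of classes is a description, because the classes were chosen from the same counts.

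**Figure D1:**
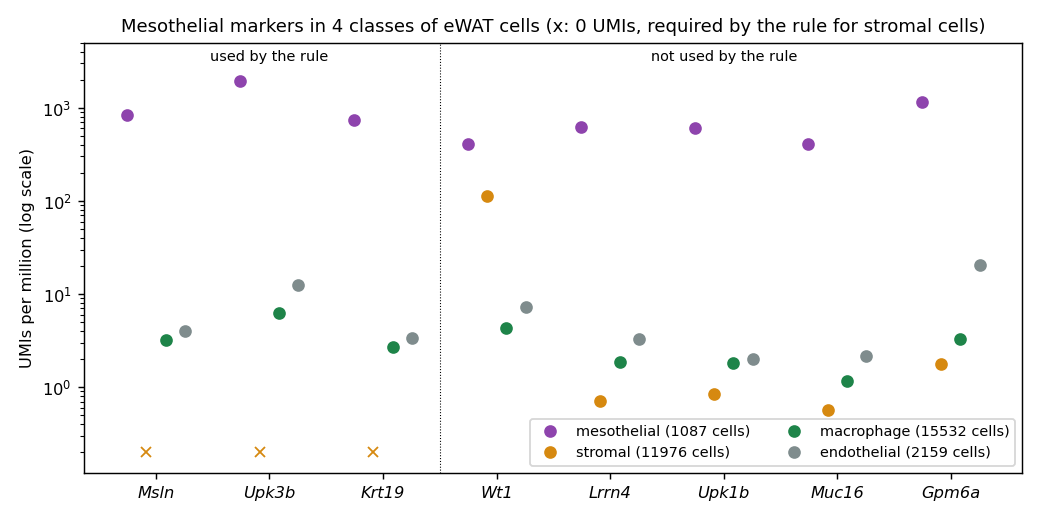
CPM on a log axis of the rule's genes (Msln, Upk3b, Krt19) and of 5 markers it did not use, in mesothelial, stromal, macrophage and endothelial cells of the 6 eWAT libraries, with a cross where the rule required 0 UMIs. Wt1 stood at 412 CPM in mesothelial and 112 CPM in stromal cells, while Lrrn4 stood at 627 and 0.718 CPM.

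Marker levels varied among libraries less than many of the genes described below. Msln was at 993 and 1043 CPM in WT-Veh, 634 and 886 in ob/ob-Veh, and 944 and 1966 in ob/ob-Rosi. Upk3b, also of the rule, was at 1646 and 1629 CPM, 2102 and 1972, and 1484 and 1408 in the same order, highest in ob/ob-Veh. Krt19, the third gene of the rule, was at 621 and 709 CPM, 644 and 902, and 643 and 790. Lrrn4 was at 588 and 515 CPM in WT-Veh, 653 and 649 in ob/ob-Veh, and 530 and 443 in ob/ob-Rosi. Wt1 was at 180 and 240 CPM in WT-Veh, 447 and 460 in ob/ob-Veh, and 312 and 175 in ob/ob-Rosi. Both ob/ob-Veh libraries were the highest for Wt1 and for Lrrn4, and ob/ob-Rosi overlapped WT-Veh for Wt1. Neither gene passed the test, since Wt1 differed by a log2 fold change of 1.04 in ob/ob-Veh against WT-Veh (edgeR adjusted p = 0.0971) and by -0.78 in ob/ob-Rosi against ob/ob-Veh (adjusted p = 0.189). Over cells, Wt1 was found in 41.2% and 68.2% of WT-Veh members, 89.6% and 87.1% of ob/ob-Veh members, and 75.8% and 61.4% of ob/ob-Rosi members. Thinned to 700 UMIs, the shares were 9.28% and 20.5%, 23.8% and 27.1%, and 16.1% and 9.09%, and the ob/ob-Veh libraries were again the highest.

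Mesothelial cells made up a larger share of the eWAT fraction in ob/ob-Veh than in either other group. They were 97 of 14718 and 44 of 6472 cells in WT-Veh (0.659% and 0.680%), 453 of 9165 and 387 of 7751 in ob/ob-Veh (4.94% and 4.99%), and 62 of 9439 and 44 of 10068 in ob/ob-Rosi (0.657% and 0.437%). The exact binomial 95% intervals, which cover counting error only, ran from 0.318% to 0.912% over the WT-Veh and ob/ob-Rosi libraries and from 4.51% to 5.50% over the ob/ob-Veh libraries. The groups did not overlap, and ob/ob-Rosi lay at or below WT-Veh. Group means were 0.669% ± 0.0147 (SD, n = 2), 4.97% ± 0.0355 (SD, n = 2) and 0.547% ± 0.155 (SD, n = 2). The ob/ob-Veh mean was 4.30 percentage points and 7.42-fold above WT-Veh, and ob/ob-Rosi was 4.42 percentage points below ob/ob-Veh and 9.08-fold lower (the difference coded as ob/ob-Rosi minus ob/ob-Veh was -4.42). Each exact two-sided permutation test gave p = 0.333, the smallest that 2 against 2 libraries allow. A share of captured cells does not tell more mesothelial cells from fewer cells of other kinds, and the biopsies were not stated to hold equal areas of pad surface.

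The median depth of kept cells differed between libraries, from 2046 UMIs in WT-Veh 1 to 4961 in ob/ob-Rosi 2. Every cell was therefore also thinned to 700 UMIs. A looser threshold was then applied, a sum of at least 2 UMIs in place of 4, with the rest of the rule kept. The shares were then 0.394% and 0.371% in WT-Veh, 2.64% and 3.37% in ob/ob-Veh, and 0.434% and 0.298% in ob/ob-Rosi, with folds of 7.85 and 8.20. Without thinning, the looser threshold gave folds of 7.12 and 8.79. UMIs of stromal or macrophage genes (Pdgfra, C1qa, C1qb, C1qc, Csf1r or Adgre1) were found in 826 members (76.0%). Without those cells 20 and 2 members were left in WT-Veh, 130 and 103 in ob/ob-Veh, and 5 and 1 in ob/ob-Rosi. Both ob/ob-Veh libraries still lay above the rest, while ob/ob-Rosi and WT-Veh overlapped. On those few cells the ob/ob-Veh mean was 16.5-fold above WT-Veh and ob/ob-Rosi 43.7-fold lower than ob/ob-Veh. Whether those UMIs came from doublets or free RNA was not tested.

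**Figure D2:**
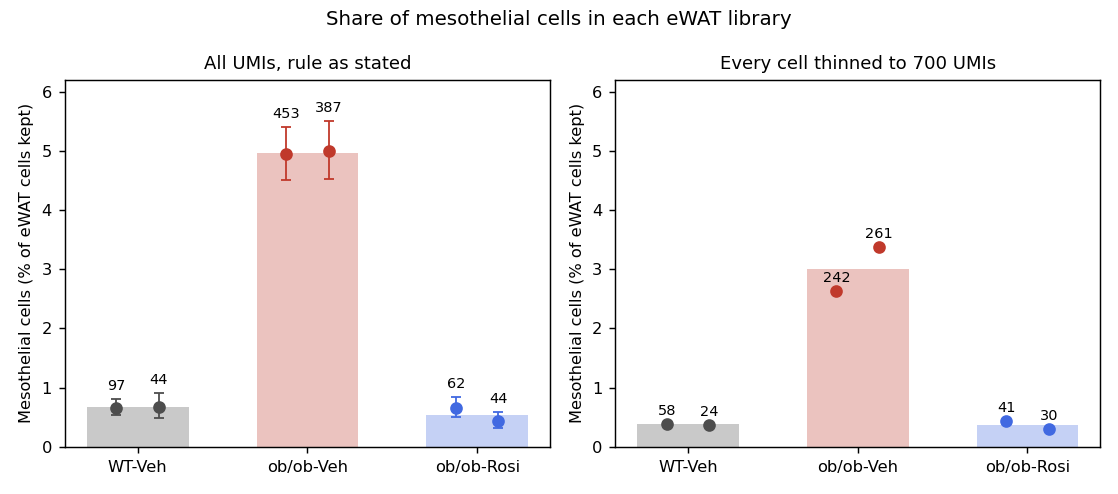
Percent of eWAT cells that met the mesothelial rule in each library, with all UMIs and exact binomial 95% intervals on the left. On the right, cells were thinned to 700 UMIs and needed a looser sum of at least 2 UMIs. The number of cells that passed stands above each point. Both ob/ob-Veh libraries lay near 5.0% with all UMIs, and the other 4 lay between 0.437% and 0.680%.

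To ask how gene expression within mesothelial cells differed, the UMIs of all members of a library were summed and 6311 genes were tested with edgeR, with calls made where the p adjusted by Benjamini and Hochberg was 0.05 or less and the fold change was 1.1 or more. The sums held 3532310 and 2887720 UMIs in ob/ob-Veh, against 333478 and 370884 in WT-Veh and 371932 and 347957 in ob/ob-Rosi. Low CPM values in WT-Veh and ob/ob-Rosi, such as those of Adam23, Lyz1, Sorl1, Mark1 and Igkc, therefore rest on few UMIs. In ob/ob-Veh against WT-Veh 34 genes rose (0.539% of those tested) and 90 fell (1.43%). The rises included the genes of thrombomodulin, netrin-1 and galectin-7, and the falls included the BMP-family ligand Bmp3, the small proteoglycan Bgn, the histidine-degrading enzyme Hal and complement C4b. The count leaned on 1 library, since without WT-Veh 1 only 8 genes were called, and without WT-Veh 2 or ob/ob-Veh 1 the count was 51 or 54.

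RNA of macrophages moved with this comparison. The 18 macrophage genes of a list summed to 4534 and 2181 CPM in WT-Veh members, 851 and 1160 in ob/ob-Veh members, and 2471 and 2992 in ob/ob-Rosi members, and none was at 0 in all libraries. In whole libraries the same sum was 26880 and 27520, 10297 and 14080, and 28598 and 34658 CPM. Free RNA was estimated by taking every UMI of 10 macrophage genes in members as free. The estimate came to 18.0% and 8.67% of members' UMIs in WT-Veh, 9.94% and 8.50% in ob/ob-Veh, and 9.26% and 9.24% in ob/ob-Rosi. Trem2 is one of the 10, and in ob/ob-Veh members it was higher than in the macrophages of the same libraries. The estimate may therefore be too high there. Of 16 macrophage genes tested in members, 8 fell in ob/ob-Veh (50% beside 1.43% of all genes), among them Tyrobp, C1qb, Cd68 and Lyz2, with a median of -2.11 on the log2 scale beside -0.01 over all genes tested. With the free RNA subtracted the median was 1.44 over the 5 genes that could still be tested, and 40 genes in all were called, 39 of them among the 124. The 10 genes that scaled the free RNA belong to the macrophage list. Loss of the list's fall was therefore set by the subtraction and is no test. Where a gene is given below with the ratio of its level in members to that in the whole library, the ratio is of group means in the group where members had the most, and it can be lower in the other groups. Sums of lists named for other classes moved too. Stromal progenitor genes summed to 6081 and 6778 CPM in WT-Veh members, 4285 and 4468 in ob/ob-Veh, and 5703 and 5969 in ob/ob-Rosi. Fmo2, given below, made up much of the WT-Veh sum, and members carried it above its library level. Of the 10 genes of this list tested, 5 had a positive and 5 a negative change in ob/ob-Veh. Endothelial genes summed to 714 and 968, 407 and 651, and 616 and 1012 CPM, and mural genes to 1035 and 488, 299 and 291, and 277 and 1109 CPM, in the same order. For these 3 lists the ob/ob-Veh members lay below WT-Veh and for the stromal progenitor list alone below ob/ob-Rosi. In whole libraries the stromal progenitor sum was instead highest in ob/ob-Veh, at 1947 and 1594, 6291 and 4702, and 2534 and 1745 CPM. Mural genes stood there at 70.7 and 59.2, 111 and 231, and 69.9 and 126 CPM, below members in every library. Acta2, a mural marker, was at 211 CPM in members and at most 23.8 in stromal cells, macrophages and endothelial cells. Whether these sums came from other cells was not tested. Genes of other epithelia set ob/ob-Veh 2 apart, at 879 CPM in the whole library against 0.995 to 8.06 in the other 5, and at 163 CPM in its members against 30.6 in those of ob/ob-Veh 1 and 117 and 108 in those of WT-Veh. Nearly all of the sum in WT-Veh members was Cldn3, whose values are given below. In ob/ob-Veh 2 members most of it was other genes. Adipocyte genes were also highest in the whole ob/ob-Veh 2 library, at 308 CPM, and were at 2.69 to 13.2 CPM in members. Their part in the results was not tested.

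Among the genes that rose in ob/ob-Veh, Thbd encodes thrombomodulin, the endothelial and mesothelial anticoagulant receptor for thrombin. It was at 234 and 348 CPM in WT-Veh, 1530 and 1210 in ob/ob-Veh, and 398 and 273 in ob/ob-Rosi. The ob/ob-Veh libraries lay apart from the others, and the log2 fold change was 2.18 (SE 0.293, edgeR adjusted p = 0.00969). Lgals7 was at 171 and 248 CPM in WT-Veh, 1034 and 1018 in ob/ob-Veh, and 575 and 388 in ob/ob-Rosi. Both ob/ob-Rosi libraries lay between the other groups, and the change from WT-Veh to ob/ob-Veh was 2.22 (SE 0.281, adjusted p = 0.00969). Ntn1, the secreted guidance cue netrin-1, was at 30.0 and 37.7 CPM in WT-Veh, 185 and 182 in ob/ob-Veh, and 59.2 and 31.6 in ob/ob-Rosi. It rose by 2.36 (SE 0.330, adjusted p = 0.0107) with no overlap of WT-Veh and ob/ob-Veh. Dmkn, a secreted epidermal protein, was at 90.0 and 70.1 CPM in WT-Veh, 429 and 305 in ob/ob-Veh, and 255 and 348 in ob/ob-Rosi, so ob/ob-Rosi overlapped ob/ob-Veh. Its rise was 2.14 (SE 0.320, adjusted p = 0.0118).

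The other rises named by size were those of Ces1d, Adam23, Sorl1 and Lyz1. Ces1d, a carboxylesterase with near-identical family members that counting may not separate, was at 30.0 and 48.5 CPM in WT-Veh, 204 and 168 in ob/ob-Veh, and 35.0 and 11.5 in ob/ob-Rosi (log2 fold change 2.17, SE 0.378, adjusted p = 0.0219). The sortilin-family receptor Sorl1 was at 18.0 and 10.8 CPM in WT-Veh and 78.4 and 64.8 in ob/ob-Veh (2.26, SE 0.411, adjusted p = 0.0247). Adam23, a catalytically inactive member of the ADAM family, was at 3.00 and 16.2 CPM in WT-Veh, 123 and 106 in ob/ob-Veh, and 56.5 and 5.75 in ob/ob-Rosi (3.46, SE 0.703, adjusted p = 0.0387). Its ob/ob-Rosi libraries differed from each other the most, and its call was lost with the free RNA subtracted. Lyz1, a lysozyme gene that resembles Lyz2, stood in members at 0.107 times its whole-library level. Without WT-Veh 1 none of these 8 rises kept its call, and Lgals7 and Thbd kept theirs under all other alternatives.

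Several genes that fell in ob/ob-Veh stood far higher in members than in the whole library, such as Bmp3 at 106 times that level in WT-Veh. Over all 6 libraries Bmp3 was at 36.5 CPM in members and 1.67 in the whole libraries. Bmp3 was at 135 and 229 CPM in WT-Veh, 10.5 and 13.5 in ob/ob-Veh, and 118 and 103 in ob/ob-Rosi. It fell by 3.99 on the log2 scale (SE 0.302, edgeR adjusted p = 0.000437), with WT-Veh and ob/ob-Rosi both far above ob/ob-Veh. Hal, at 67.4 times its library level, was at 60.0 and 146 CPM in WT-Veh, 12.2 and 11.1 in ob/ob-Veh, and 172 and 77.6 in ob/ob-Rosi. It fell by 3.20 (SE 0.453, adjusted p = 0.0109), with no overlap of ob/ob-Veh and the rest. Bgn, biglycan of the extracellular matrix, was at 498 and 706 CPM in WT-Veh, 90.9 and 101 in ob/ob-Veh, and 522 and 1219 in ob/ob-Rosi. It fell by 2.72 (SE 0.363, adjusted p = 0.00969), and its ob/ob-Veh libraries were the lowest. Unlike Bmp3 and Hal, Bgn was higher in stromal cells, at 1803 CPM over all libraries against 211 in members and 528 in the whole libraries. Bmp3 and Bgn were called under every alternative that tested them, and Hal lost its call without WT-Veh 2. Bmp3 lies at chr5:98854415-98884396, Hal at chr10:93488768-93519304 and Bgn at chrX:73483602-73495933.

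C4b, the complement component C4 gene, was at 594 and 324 CPM in WT-Veh, 50.1 and 35.3 in ob/ob-Veh, and 419 and 175 in ob/ob-Rosi. It fell by 3.49 (SE 0.462, adjusted p = 0.00969), a call that was lost without WT-Veh 1. Ltbp2, a matrix protein related to the latent TGFβ binding proteins, was at 108 and 146 CPM in WT-Veh, 5.38 and 0.693 in ob/ob-Veh, and 10.8 and 97.7 in ob/ob-Rosi. It fell by 5.32 (adjusted p = 0.0107), a call lost without either WT-Veh library, and the ob/ob-Rosi libraries were far apart. Saa3, an acute phase protein of fat and macrophages, was at 297 CPM in WT-Veh 1 but 10.8 in WT-Veh 2, and at 3.11 and 1.39 in ob/ob-Veh. Its call (adjusted p = 0.0466) was lost without WT-Veh 1, with the free RNA subtracted, under the looser rule and with cells thinned. The other named falls were those of Atp6v0d2, Ccl8, Cd68 and Tyrobp, genes of macrophages or osteoclasts, which stood in members at 0.166, 0.250, 0.134 and 0.147 times their whole-library levels.

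**Figure D3:**
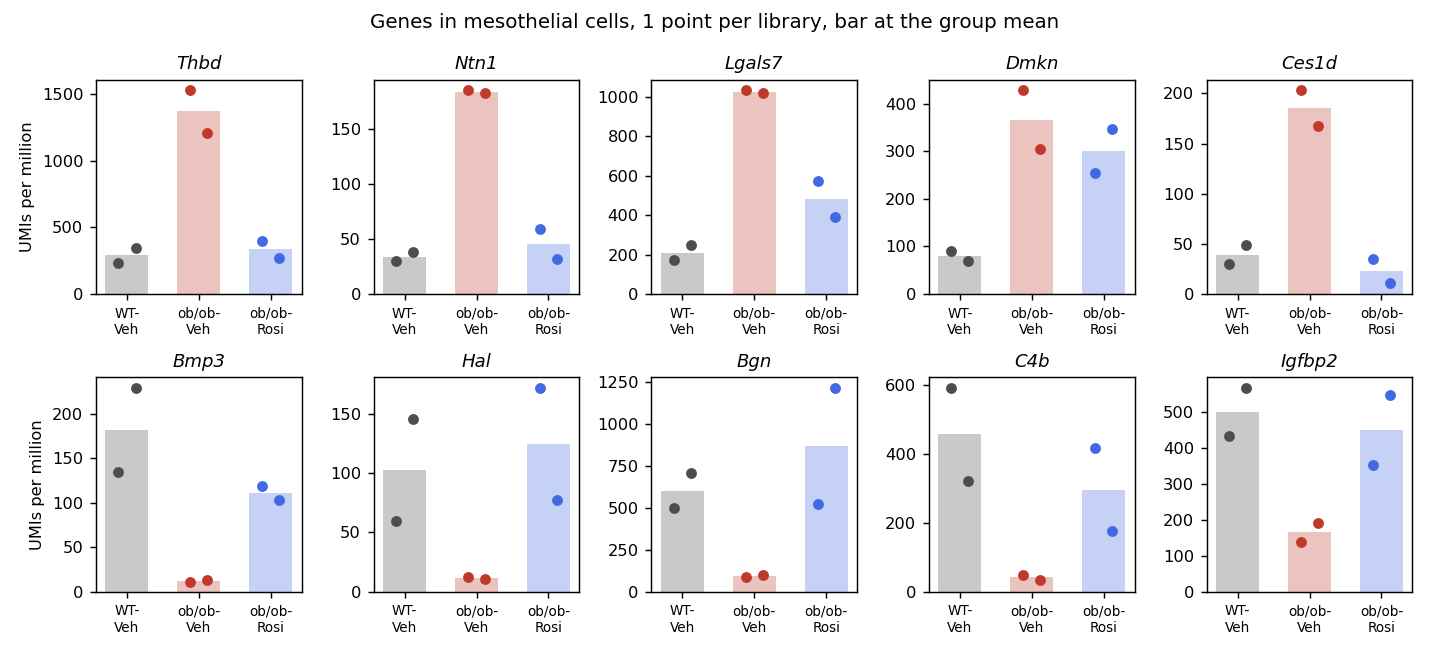
CPM in mesothelial cells by library for 5 genes that rose and 5 that fell in ob/ob-Veh against WT-Veh, with points for libraries and bars for group means. Thbd, at 1530 and 1210 CPM in ob/ob-Veh, and Bmp3, at 10.5 and 13.5 CPM, each lay nearer to WT-Veh in ob/ob-Rosi, while Dmkn was at 255 and 348 CPM there.

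The Rosi comparison asked what short treatment of obese mice did to these cells. In ob/ob-Rosi against ob/ob-Veh 48 genes rose (0.761% of 6311) and 12 fell (0.19%). Both comparisons share the ob/ob-Veh libraries, so the values of each are given side by side and their likeness is not tested. By that shared count 8 genes were higher in ob/ob-Veh than in both other groups (0.127%) and 34 lower (0.539%). Without ob/ob-Rosi 2 the count of Rosi calls was 5, without ob/ob-Veh 1 it was 27, and without ob/ob-Veh 2 or ob/ob-Rosi 1 it was 97 or 151. Macrophage RNA again moved with the comparison. It rose for 5 of 16 genes tested (31.2% beside 0.761% of all genes), with a median of 1.70 beside -0.01 over all genes and -0.24 over the 5 genes that remained with the free RNA subtracted, when 20 genes were called in all. Here too the subtracted median is no test, because genes of this list scaled the free RNA.

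Among the rises with Rosi, Bmp3 changed by 3.32 (SE 0.314, edgeR adjusted p = 0.00396), Hal by 3.52 (SE 0.442, adjusted p = 0.00935) and Bgn by 3.28 (SE 0.368, adjusted p = 0.00935). These 3 effects were called under every alternative that tested them. C4b rose by 2.90 (SE 0.458, adjusted p = 0.0215) but lost the call without ob/ob-Rosi 1. Ctla2a, a cathepsin L inhibitor gene of activated T cells and other tissues, was at 36.0 and 18.9 CPM in WT-Veh, 3.96 and 4.50 in ob/ob-Veh, and 45.7 and 236 in ob/ob-Rosi. It had the largest rise among the named genes, 5.11 (SE 0.638, adjusted p = 0.00935), and the call was lost without ob/ob-Rosi 2, the library at 236 CPM. Ccl8, Cd68 and Tyrobp were the other named rises, at 4.68, 3.16 and 3.07.

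The balance of Rosi calls depended on the scaling and on 1 library, with 38 higher and 33 lower by library size alone and 49 and 48 without ob/ob-Veh 2. Thbd fell by 1.93 (SE 0.289, edgeR adjusted p = 0.0173), Ntn1 by 1.90 (SE 0.312, adjusted p = 0.0263) and Ces1d by 2.88 (SE 0.413, adjusted p = 0.0134). Lgals7, at -0.98, did not pass (adjusted p = 0.0895), and Dmkn stood at -0.19 (adjusted p = 0.735). Hspa1b, which shares most of its sequence with Hspa1a so that reads may be split between them, was at 21.0 and 27.0 CPM in WT-Veh, 101 and 102 in ob/ob-Veh, and 21.5 and 14.4 in ob/ob-Rosi. It fell by 2.38 (SE 0.329, adjusted p = 0.0117), with both ob/ob-Veh libraries apart from the rest. Ccnd1, cyclin D1 of the cell cycle, was at 27.0 and 51.2 CPM in WT-Veh, 89.7 and 76.5 in ob/ob-Veh, and 18.8 and 20.1 in ob/ob-Rosi (-1.99, SE 0.371, adjusted p = 0.0341). The microtubule-regulating kinase gene Mark1 was at 24.0 and 32.4 CPM in WT-Veh, 79.3 and 59.6 in ob/ob-Veh, and 8.07 and 11.5 in ob/ob-Rosi (-2.73, SE 0.447, adjusted p = 0.0263). Sorl1 fell by 2.26 (adjusted p = 0.0327), and the immunoglobulin constant gene Igkc, at 0.107 of its library level, by 4.18 (adjusted p = 0.0132). Without ob/ob-Rosi 2 none of these 8 falls kept its call. With the free RNA subtracted the calls of Ccnd1, Ntn1 and Sorl1 were lost, and that of Ccnd1 was also lost under the looser rule.

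ob/ob-Rosi against WT-Veh gave no called gene in either direction with edgeR (0% of 6311), while an unadjusted p under 0.05 was reached by 105 genes on the higher side and 110 on the lower, and DESeq2 called 1. With 2 libraries a group, this does not show that the groups were alike. The genes above give some of the distances, with Bmp3 at 118 and 103 CPM in ob/ob-Rosi against 135 and 229 in WT-Veh, and Dmkn at 255 and 348 against 90.0 and 70.1.

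Genes of mesothelial identity and of its epithelial character gave 1 call in each comparison. Counts of list members are given below beside the shares of all 6311 genes called, which were 0.539% higher and 1.43% lower in ob/ob-Veh and 0.761% higher and 0.19% lower with Rosi. For the genes called on this and the lists that follow, every ob/ob call was lost without WT-Veh 1, and every Rosi call but that of C4b was lost without ob/ob-Rosi 2. Of 24 identity genes tested, Dmkn rose in ob/ob-Veh and Anxa8, an annexin, rose with Rosi (1.88, edgeR adjusted p = 0.0291), and no other was called, which is 4.17% of the list in each comparison beside 0.539% and 0.761% of all genes. The identity medians were 0.34 in ob/ob-Veh and -0.08 with Rosi, beside -0.01 over all genes in each comparison. Slpi was at 8432 and 6285 CPM in WT-Veh, 6858 and 7398 in ob/ob-Veh, and 10187 and 12688 in ob/ob-Rosi, where both were highest without passing the test (0.79, adjusted p = 0.106). None of 11 surface and lubrication genes and none of 16 junction and polarity genes was called in either comparison, with medians of 0.47 and 0.17 in ob/ob-Veh and -0.15 and -0.24 with Rosi. The tight junction gene Cgn was at 24.0 and 29.7 CPM in WT-Veh, 73.0 and 68.2 in ob/ob-Veh, and 21.5 and 31.6 in ob/ob-Rosi, and did not pass (1.32, adjusted p = 0.0676, and -1.32, adjusted p = 0.0737). Of 21 mesenchymal transition genes, the matricellular gene Ctgf fell in ob/ob-Veh (-1.89, adjusted p = 0.0307) and the gelatinase gene Mmp2 rose with Rosi (2.45, adjusted p = 0.0215), each 4.76% of the list beside 1.43% and 0.761% of all genes. Mmp2 was at 36.2 CPM in members, 584 in stromal cells and 159 in the whole libraries, and its call was lost with the free RNA subtracted. The calls of Ctgf and Anxa8 were lost with that subtraction too. Vim was at 1763 and 1658 CPM, 1177 and 1263, and 1433 and 1770 in the same order of groups, below the other libraries in ob/ob-Veh (-0.56, adjusted p = 0.171). Cldn3, a claudin of other epithelia that members carried at 91.9 times the library level, was at 114 and 108 CPM in WT-Veh, 27.7 and 40.9 in ob/ob-Veh, and 48.4 and 54.6 in ob/ob-Rosi, and fell in ob/ob-Veh (-1.78, adjusted p = 0.0118).

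Secreted regulators of growth gave called genes in both comparisons. Igfbp2, an insulin-like growth factor binding protein at 111 times its library level in members, was at 435 and 569 CPM in WT-Veh, 138 and 192 in ob/ob-Veh, and 352 and 549 in ob/ob-Rosi. It fell by 1.68 in ob/ob-Veh (edgeR adjusted p = 0.0177) and rose by 1.56 with Rosi (adjusted p = 0.0298), the ob/ob-Veh libraries being the lowest. The rise lost its call in 5 of 15 alternatives, with the free RNA subtracted among them, and the fall lost its call in 4. The WNT-binding protein gene Sfrp2 was at 639 and 585 CPM in WT-Veh, 194 and 197 in ob/ob-Veh, and 382 and 1029 in ob/ob-Rosi. It fell by 1.72 (adjusted p = 0.0482) and rose by 1.94 (adjusted p = 0.0428), with ob/ob-Rosi libraries far apart. The fall lost its call in 9 of 15 alternatives and the rise in 6, and both did with the free RNA subtracted. These were the called genes among 22 tested of the growth factor, WNT and IGF list, 9.09% in each comparison beside 1.43% of all genes falling in ob/ob-Veh and 0.761% rising with Rosi, whose medians were -0.44 and 0.28, since Bmp3 was not on it. Fgf1, at 588 and 1421 CPM in WT-Veh, 1159 and 1413 in ob/ob-Veh, and 1175 and 1170 in ob/ob-Rosi, overlapped in all groups. Of 17 basement membrane genes, Fbln1, fibulin-1, rose in ob/ob-Veh from 354 and 493 CPM to 991 and 1185 (1.29, adjusted p = 0.0259), and stood at 575 and 480 in ob/ob-Rosi (-0.93, adjusted p = 0.0787). No other of the list was called, so 5.88% rose beside 0.539% of all genes.

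Complement genes were among the high transcripts of these cells, and C4b alone of 11 was called, in both comparisons, or 9.09% of the list beside 1.43% of all genes lower in ob/ob-Veh and 0.761% higher with Rosi. C3, the central complement component, was at 8076 and 8693 CPM in WT-Veh, 7495 and 7625 in ob/ob-Veh, and 7208 and 10516 in ob/ob-Rosi, so ob/ob-Veh lay below WT-Veh and ob/ob-Rosi overlapped both (-0.22 in ob/ob-Veh, adjusted p = 0.594, by edgeR). Of 18 inflammatory and acute phase genes, Saa3 and Ccl8 fell in ob/ob-Veh (11.1% beside 1.43% of all genes) and Ccl8 rose with Rosi (5.56% beside 0.761%), with medians of 0.15 and 0.14. Both Ccl8 calls and that of Saa3 were lost with the free RNA subtracted. Il33, an alarmin, was at 111 and 256 CPM, 128 and 171, and 129 and 198, with overlap of all groups. None of 29 interferon-stimulated and MHC class I genes was called in either comparison, with medians of 0.18 and -0.28.

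Pparg, the gene of the receptor that Rosi binds, was too low in members to be tested, and the fat metabolism genes that PPARs control gave 4 falls in ob/ob-Veh and 2 rises with Rosi among 19 tested, or 21.1% and 10.5% beside 1.43% and 0.761% of all genes. With Rosi the list's median was -0.15, with 8 positive and 11 negative changes. Fabp5, a fatty acid binding protein, was at 558 and 415 CPM in WT-Veh, 60.9 and 108 in ob/ob-Veh, and 231 and 402 in ob/ob-Rosi. It fell by 2.62 (edgeR adjusted p = 0.00969) and rose by 2.02 with Rosi (adjusted p = 0.0291), the rise losing its call with the free RNA subtracted. The fatty acid transporter gene Cd36 fell by 2.15 (adjusted p = 0.0140) and rose by 1.94 (adjusted p = 0.0293), and Lpl and Plin2, a lipase and a lipid droplet protein, fell by 2.30 and 1.89 (adjusted p = 0.0217 and 0.0219). Over all 6 libraries Fabp5 was at 139 CPM in members and 917 in the whole libraries, Cd36 at 52.1 and 1338, Lpl at 64.3 and 2012, and Plin2 at 119 and 1445. With the free RNA subtracted, the median of the list in ob/ob-Veh went from -0.27 to 0.43 and Plin2 to 0.46. Angptl4, a secreted lipase inhibitor, went the other way, at 83.9 and 53.9 CPM in WT-Veh, 240 and 170 in ob/ob-Veh, and 45.7 and 77.6 in ob/ob-Rosi, and did not pass (1.51, adjusted p = 0.0580, and -1.65, adjusted p = 0.0533).

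Of 79 ribosomal protein genes tested, 4 fell in ob/ob-Veh, or 5.06% beside 1.43% of all genes, and 1 rose with Rosi. All 79 had a negative log2 fold change in ob/ob-Veh and 76 had a positive one with Rosi, with medians of -0.52 and 0.63 beside -0.01 over all genes. Those that fell were Rpl11, Rpl6, Rpl32 and Rpl15 (log2 fold changes of -0.92, -0.97, -0.94 and -0.92), all of which lost the call with library size alone and with the free RNA subtracted. Rpl15 rose with Rosi (1.08, edgeR adjusted p = 0.0308), 1.27% of the list beside 0.761% of all genes, and this call too was lost in both. The 82 genes of the list summed to 132893 and 146372 CPM in WT-Veh, 97482 and 104956 in ob/ob-Veh, and 146597 and 137474 in ob/ob-Rosi, so the ob/ob-Veh libraries were the lowest. Whole libraries also had the lowest sums in ob/ob-Veh, at 149417 and 158181, 118636 and 114190, and 133868 and 149218 CPM. Over the alternatives the medians ran from -0.57 to -0.44 and from 0.48 to 0.66. Nuclear genes of the respiratory chain had 70 negative signs of 80 in ob/ob-Veh and 75 positive with Rosi, medians of -0.37 and 0.46, and no call in either. Of 53 translation factor genes, Eef1b2 fell in ob/ob-Veh (-0.95, adjusted p = 0.0471) and Eif4ebp1, whose product restrains translation initiation, rose with Rosi (1.51, adjusted p = 0.0333). Each was 1.89% of the list, beside 1.43% of all genes lower in ob/ob-Veh and 0.761% higher with Rosi. Both calls were lost with the free RNA subtracted, and that of Eef1b2 also with library size alone.

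Immediate early and heat shock genes, which tissue digestion can induce, had 24 positive signs of 26 in ob/ob-Veh and 24 negative with Rosi, with medians of 1.00 and -1.17. That lean moved with 1 library, since the 30 genes summed to 6807 and 6347 CPM in WT-Veh, 14653 and 6333 in ob/ob-Veh, and 5872 and 6400 in ob/ob-Rosi. Without ob/ob-Veh 1 the medians were 0.07 and -0.28. Fos, of the AP-1 factors, was at 1467 CPM in ob/ob-Veh 1 and 304 in ob/ob-Veh 2, against 429 and 221 in WT-Veh (1.40, edgeR adjusted p = 0.239). Hspa1b did not follow that split, at 101 and 102 CPM in both ob/ob-Veh libraries, and rose in ob/ob-Veh (2.00, SE 0.312, adjusted p = 0.0140). Hspb1, which carries 2 copies of the heat shock core in the promoter printed above, went the other way. It was at 1496 and 2084 CPM in WT-Veh, 796 and 754 in ob/ob-Veh, and 1584 and 2480 in ob/ob-Rosi, and it fell by 1.27 (adjusted p = 0.0359) and rose by 1.49 with Rosi (adjusted p = 0.0291), with no overlap of ob/ob-Veh and the rest.

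Among the remaining groups, 2 of 21 NRF2 antioxidant and metallothionein genes fell in ob/ob-Veh (9.52% beside 1.43% of all genes), the glutathione transferase Gsta4 (-1.39, edgeR adjusted p = 0.0418) and the ferritin light chain Ftl1 (-1.36, adjusted p = 0.0318), and none was called with Rosi, with medians of -0.13 and 0.54. The Gsta4 and Ftl1 calls were lost with the free RNA subtracted, and that of Gsta4 also with library size alone. None of 9 retinoid genes and none of 4 proliferation genes was called in either comparison. Aldh1a2, which makes retinoic acid in mesothelium, was at 132 and 178 CPM, 128 and 147, and 85.9 and 164, so the groups overlapped. Of 10 stromal progenitor genes Fmo2, a flavin monooxygenase at 27.7 times its library level in members, fell from 3074 and 3937 CPM to 1130 and 1177 (-1.67, adjusted p = 0.0109) and rose with Rosi (1.36, adjusted p = 0.0293).

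**Figure D4:**
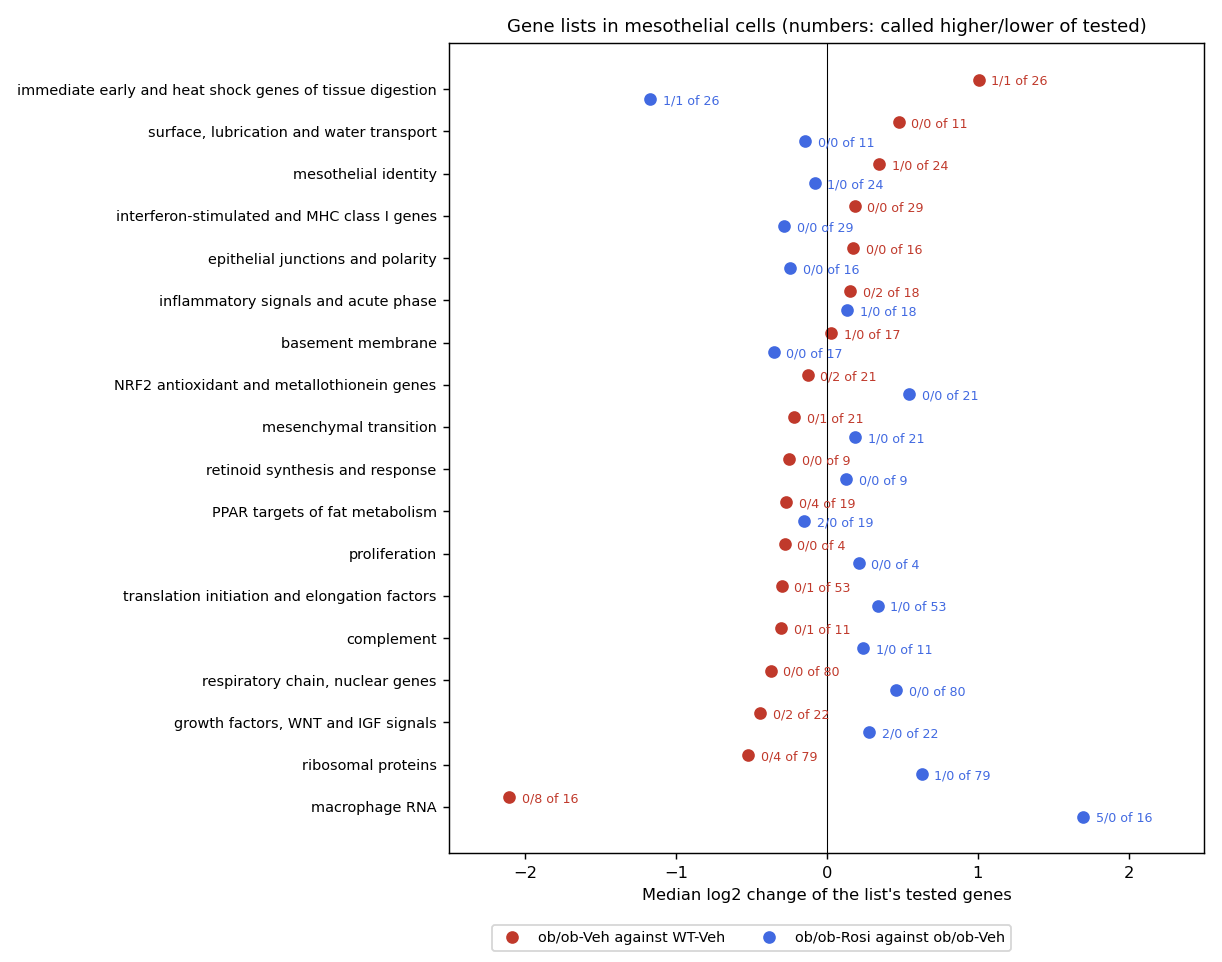
Median log2 fold change of each gene list in ob/ob-Veh against WT-Veh and in ob/ob-Rosi against ob/ob-Veh, with the numbers of genes called higher and lower of those tested, the 2 comparisons sharing the ob/ob-Veh libraries. The ribosomal list stood at -0.52 and 0.63 with 4 and 1 called genes, and the macrophage list at -2.11 and 1.70 with 8 and 5.

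To ask which changes differed from those of other cells of the same libraries, mesothelial sums were compared with sums over 11976 stromal cells, with the library as a block. The ob/ob effect differed between the cell types for 234 of 6311 genes (3.71%) and the Rosi effect for 262 (4.15%). Of the called mesothelial changes, 6 of 34 rises and 20 of 90 falls in ob/ob-Veh, and 16 of 48 rises and 3 of 12 falls with Rosi, also differed from the stromal change. Most had the same sign in stromal cells where tested there. That held for 31 of 33 rises and 75 of 81 falls in ob/ob-Veh, and for 40 of 42 rises and 10 of 12 falls with Rosi. The same share over all genes tested was not counted, so these counts do not set the called genes apart. Thbd and Ntn1 did not pass the test of a difference between the classes, with ob/ob effects of 2.84 and 2.69 in stromal cells. Dmkn rose in members and stood at -0.41 in stromal cells (difference 2.49, edgeR adjusted p = 0.0169), and Adam23 stood at 0.06 there (difference 3.39, adjusted p = 0.0105). Fbln1 stood at -0.20 in stromal cells (difference 1.49, adjusted p = 0.00419), Angptl4 at -0.64 (difference 2.12, adjusted p = 0.00118) and Hspb1 at -0.14 (difference -1.18, adjusted p = 0.0279). C4b fell more in members than in stromal cells (difference -1.43, adjusted p = 0.0145). With Rosi, Ccnd1 fell in members and stood at 1.76 in stromal cells (difference -3.74, adjusted p = 0.000214), and Mark1 differed by -3.49 (adjusted p = 0.00175).

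The differences with the smallest p were of a different kind, because the mesothelial change itself was not called in the same comparison. Trem2, a lipid receptor of macrophages, was at 237 and 181 CPM in WT-Veh members, 179 and 137 in ob/ob-Veh, and 113 and 207 in ob/ob-Rosi. In stromal cells it was at 328 and 172, 2.17 and 5.77, and 146 and 193 CPM. In members both ob/ob-Veh libraries lay just below both WT-Veh libraries and ob/ob-Rosi overlapped both groups, while the ob/ob-Veh libraries were the lowest in stromal cells and also in macrophages, at 1520 and 1370, 85.1 and 114, and 1380 and 1670 CPM. Macrophage RNA in the stromal cells was likewise lowest there, with Tyrobp at 548 and 285 CPM in WT-Veh, 24.6 and 61.5 in ob/ob-Veh, and 332 and 296 in ob/ob-Rosi, and its part in these differences was not tested. Cadm4, an adhesion molecule, was at 105 and 62.0 CPM, 44.7 and 44.0, and 48.4 and 46.0 in members, against 38.2 and 28.4, 0.567 and 0.231, and 18.1 and 39.0 in stromal cells. Acp5, an acid phosphatase of osteoclasts and macrophages, and Dkk3, a secreted Dickkopf-family protein, were likewise lowest in the stromal cells of ob/ob-Veh, at 0.945 and 1.69 CPM and at 2.03 and 3.00 CPM, and were at 57.5 and 64.4 CPM and at 119 and 105 CPM in members there. Timp1, a metalloprotease inhibitor, was at 135 and 56.6 CPM, 47.3 and 30.1, and 134 and 290 in members, and at 858 and 528, 32.0 and 27.4, and 488 and 1029 in stromal cells, and with Rosi it rose in members too (2.53, edgeR adjusted p = 0.0299). Edn1, the vasoconstrictor endothelin-1, was the exception in direction. It was at 41.0 and 15.6 CPM in ob/ob-Veh members and 110 and 43.1 in ob/ob-Rosi members, and at 94.6 and 35.2 and then 13.7 and 2.49 CPM in stromal cells.

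**Figure D5:**
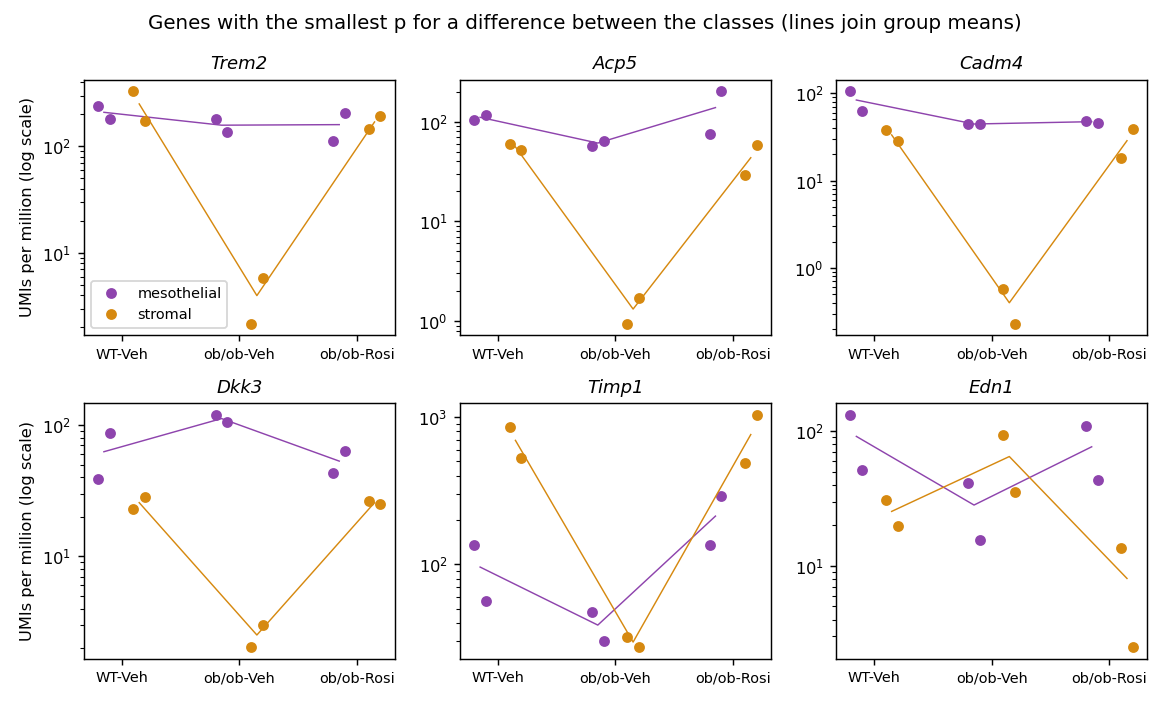
CPM by library on a log axis of Trem2, Acp5, Cadm4, Dkk3, Timp1 and Edn1 in mesothelial and stromal cells. Trem2 lay between 113 and 237 CPM in mesothelial cells, while stromal cells held 2.17 and 5.77 CPM in ob/ob-Veh.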

How the data were processed

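Droplet libraries of the eWAT stromal vascular fraction were sequenced together, 1 per mouse. The authors deposited UMI counts per gene and barcode, made per the labels with bcl2fastq 2.19.1.403 and Cell Ranger 3.0.2 on mm10, without pooling of replicates. Cells with 700 to 22000 UMIs, 200 to 6000 genes and under 25% mitochondrial UMIs were kept. Members met the rule given in the report, and their counts were summed per library. Members and lists were chosen with earlier results of these data known. Sums of all 3 groups entered 1 fit in edgeR 4.0.16 (R 4.3.3) with TMM scaling, its default filter and a quasi-likelihood test on 3 residual degrees of freedom, tested on simulated data. The study itself tested cells. Named genes were, per comparison and direction, the 8 largest called changes with 50 CPM or more in the higher group and no overlap of the groups, the 5 smallest p-values of each comparison with stromal cells, and called list members. Shares were compared by exact permutation (scipy 1.17.1). Alternatives were DESeq2 1.42.0, library size alone, no filter, thinning to 700 UMIs, stricter and looser rules, Scrublet (scanpy 1.11.5), subtraction of free RNA, a replicate block and leaving out each library. Doublets were otherwise kept. Leaving out each library for the shares was chosen after seeing the data.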

Additional observations from a re-analysis of the deposited data

Results flagged for a closer look

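Genes whose change differed between mesothelial and stromal cells of the same libraries by a test of the difference itself are given here as mesothelial minus stromal log2 fold changes. For ob/ob-Veh against WT-Veh these were 4.53 for Acp5 (edgeR adjusted p = 4.84e-06), 5.58 for Trem2 (adjusted p = 1.45e-05), 5.24 for Cadm4 (adjusted p = 1.50e-05), 4.18 for Dkk3 (adjusted p = 1.63e-05) and 3.21 for Timp1 (adjusted p = 4.51e-05). For ob/ob-Rosi against ob/ob-Veh they were -5.77 for Cadm4, -3.85 for Acp5, -4.39 for Dkk3 and -5.46 for Trem2 (each with adjusted p = 1.16e-05), and 4.59 for Edn1 (adjusted p = 1.56e-05). None of these genes was called within mesothelial cells in the same comparison.

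A signal also appeared outside the eWAT libraries. In the iWAT library labelled ob/ob-Rosi 1, 8 of 9674 cells (0.0827%) met the mesothelial rule, against 1 cell over the other 5 iWAT libraries. All 8 had UMIs of Gpm6a and 7 had UMIs of Wt1, of Lrrn4 and of Muc16, while none had Krt5, a keratin of stratified epithelium, 1 had Krt14, 1 had Epcam and 3 had Pdgfra.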

How the results depend on the processing

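The 124 calls in ob/ob-Veh became 527 with no filter (244 higher and 283 lower), 45 with members thinned to 700 UMIs (25 and 20), 40 with free RNA subtracted and 306 with a replicate block. The 60 Rosi calls became 190 with DESeq2, 482 with no filter (267 and 215), 15 thinned, 119 under the stricter rule, 126 after Scrublet, 20 with free RNA subtracted and 319 with the block. Library size alone gave 35 higher and 60 lower in ob/ob-Veh and 38 and 33 with Rosi, with medians over all genes of 0.07 and -0.13. The 42 genes called in both comparisons became 118 with DESeq2, 262 with no filter, 11 thinned, 66 after Scrublet, 16 with free RNA subtracted and 171 with the block. ob/ob-Rosi against WT-Veh gave 1 call with DESeq2 and 12 with no filter. The 234 and 262 differences from stromal cells became 447 and 476 with no filter. Leaving out 1 library gave 8 to 179, 5 to 151, 5 to 70, 0 to 1, 61 to 306 and 93 to 253 calls in the same order (ob/ob-Veh, Rosi, both, ob/ob-Rosi against WT-Veh, and the stromal differences). The share difference of ob/ob-Veh over WT-Veh was 3.46 points under the stricter rule, 4.49 under the looser, 1.29 without cells with another class's UMIs, 4.41 after Scrublet and 2.62 thinned with the looser threshold, and 4.27 to 4.32 with a library left out. For Rosi it was -3.46, -4.63, -1.34, -4.52 and -2.64 under these settings in the same order, and -4.53 to -4.31 with a library left out. Of 72 named effects, Plin2 in ob/ob-Veh turned to 0.46 with free RNA subtracted, and 6 were called under every alternative that tested them. Replicate differences correlated at 0.222, 0.171 and 0.270 between groups, but 2 numbers do not establish a pairing. The cause of these changes was not tested. The gene tests were not run without cells with another class's UMIs, which left 1 to 20 members in WT-Veh and ob/ob-Rosi libraries.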

Other observations

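Further called genes that stood higher in mesothelial cells than in the whole library fell outside the naming rule and were chosen after their values were seen. The neurotrophin gene Bdnf was at 66.0 and 135 CPM in WT-Veh, 18.4 and 10.0 in ob/ob-Veh, and 48.4 and 83.3 in ob/ob-Rosi. Bdnf fell by 2.86 on the log2 scale in ob/ob-Veh (edgeR adjusted p = 0.0118) and rose by 2.27 with Rosi (adjusted p = 0.0485). Trdn, triadin of the muscle calcium-release complex, was at 51.0 and 37.7 CPM, 3.96 and 3.12, and 24.2 and 37.4, and changed by -3.66 (adjusted p = 0.0107) and 3.16 (adjusted p = 0.0291). The ob/ob-Veh libraries were the lowest for both genes, with no overlap.

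The folate receptor gene Folr1 was at 99.0 and 94.4 CPM in WT-Veh, 29.4 and 29.4 in ob/ob-Veh, and 108 and 181 in ob/ob-Rosi, with changes of -1.78 and 2.38. Nupr1, a stress-induced nuclear protein, was at 687 and 830, 220 and 275, and 782 and 1158 CPM, with changes of -1.69 and 2.08. In the opposite direction, the calcium-activated chloride channel gene Ano1 was at 150 and 213 CPM in WT-Veh, 559 and 541 in ob/ob-Veh, and 202 and 141 in ob/ob-Rosi. It rose by 1.53 (edgeR adjusted p = 0.0231) and fell by 1.58 with Rosi (adjusted p = 0.0291), and its ob/ob-Veh libraries lay above the others. Both Ano1 calls leaned on 1 library, since without WT-Veh 1 no gene was called higher in ob/ob-Veh. Without ob/ob-Rosi 2 none was called lower with Rosi and 5 were called higher, Bmp3, Hal, Bgn and C4b among them. Most of the Rosi rises of Bdnf, Trdn, Folr1 and Nupr1 were therefore lost there too.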
